A study of Mus musculus with 8 samples.

Results

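The subunits of the respiratory chain's complexes III and IV, the electron carrier cytochrome c and the subunits of ATP synthase were compared between 2 groups of mouse adipocytes on Affymetrix arrays. Members were the probe sets annotated with a single gene symbol that begins with Uqcr, Cox4 to Cox8 or Atp5, or is Cyc1 or Cycs. This took 79 of 22626 tested probe sets and 43 of 12393 genes. Each gene was read from its probe set with the highest mean signal. The rule for members used symbols only, not measured values, but it was set with earlier results of these data known.

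The cells were adipocytes differentiated in culture from F442A preadipocytes, a mouse line with a Swiss background, although another label field names the line 3T3L1. At day 6 to 8 of differentiation they received an adenovirus expressing either sXBP1, the spliced and active form of the transcription factor XBP1, or green fluorescent protein (GFP), and they were collected 4 to 6 days after infection. Both groups thus carried a virus, there was no uninfected group, and 4 arrays of total RNA were made for each. Nothing in the labels says that replicates were separate cultures. The spread behind each p-value may therefore be technical.

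Complex III passes electrons from ubiquinol to cytochrome c, and complex IV, cytochrome c oxidase, passes them on to oxygen. The proton gradient that both help to build drives ATP synthase, whose c ring turns in the membrane while its F1 head makes ATP. Several complex IV subunits have isoforms encoded by separate genes, a widely expressed one and one found mainly in heart, skeletal muscle and brown fat, or in testis or lung. All members are encoded in the nucleus.

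The 8 arrays resembled each other, with correlations of normalized values between 0.989 and 0.995 within a group and between 0.962 and 0.978 across groups. The median deposited signal was 135 to 154 on the GFP arrays and 117 to 140 on the sXBP1 arrays. None of the 4 Xbp1 probe sets passed the threshold. On the brightest one the signal was 9675 to 10303 on the GFP arrays and 10028 to 10930 on those labelled sXBP1, so Xbp1 itself did not check the labels, and whether these probes read the viral transcript was not tested. Of 6 genes of the known XBP1 programme, chosen after the data were seen (Hspa5, Dnajb9, Sec61b, Edem1, Pdia4 and Sdf2l1), 6 were higher on the arrays labelled sXBP1, with log2 changes from 0.16 to 2.39. Below, sXBP1 and GFP name the arrays by these labels. Of the adipocyte markers, 8 of 8 measured were called present on every GFP array, and 6 were lower and 0 higher on the sXBP1 arrays, where their summed signal was 50547 to 60612 against 62164 to 67898. Of 7 macrophage markers measured, 4 were higher and 0 lower (Cd14, Cd68, Lyz2 and Csf1r), with summed signals of 736 to 858 on the GFP arrays and 2086 to 4193 on the sXBP1 arrays. Ptprc and Itgam, which define leukocytes and myeloid cells, were called present on no array. Adgre1, the remaining macrophage marker, was called present on 4 GFP and 4 sXBP1 arrays. Its signals were low, from 45.3 to 59.9 in GFP and from 34.6 to 56.0 in sXBP1, and overlapped, with a change of -0.12 ± 0.16. Of the 7 macrophage markers, 5 were thus present on every GFP array. Of 8 fibroblast and preadipocyte markers, 5 were lower and 0 higher. The part of these markers in the results below was not tested.

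Of the 43 genes, 19 were lower in sXBP1 than in GFP adipocytes, 1 was higher and 23 did not pass the threshold, an adjusted p of 0.05 from limma after Benjamini-Hochberg adjustment over all tested probe sets. Of all tested probe sets, 24.5% passed it. The members called lower were 44.2% of the set, while 14.4% of all genes were lower, and the member called higher was 2.33% of the set, while 12.9% of all genes were higher. Changes are given as log2(signal + 16), sXBP1 minus GFP, after quantile normalization. Their median was -0.17 over the members and -0.01 over all genes, and they ran from -1.22 for Cox7a1 to 0.29 for Atp5g1. The change was negative for 36 of 43 members and for 6468 of 12393 genes. The deposited signals of the groups did not overlap for 21 of 43 members and for 3370 of 12393 genes (27.2%). These arrays measure bulk RNA, in which fewer cells of a type and less RNA per cell cannot be told apart.

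The members' probe sets are bright, with a median mean signal of 5382 against 192 for all genes. Of the 43, 39 were called present on all 8 arrays and 29 lay in the top 5% of genes by mean signal. Bright genes were called more often in both directions: 22.6% of genes present on all 8 arrays were lower and 19.7% higher, and among the top 5% these shares were 26.3% and 22.7%. Of the 39 members present on all 8 arrays, 18 were lower and 1 higher. The groups did not overlap for 20 of these 39. That was so for 2907 of 7203 genes present on all 8 arrays and for 262 of 620 genes in the top 5%. The count of members called depends on the scaling. With the signals as deposited, 17 members were lower and 1 higher, but after centring each array on its median, 9 were lower and 4 higher (Atp5g1, Atp5l, Cycs and Uqcrh), with 10.6% of all genes lower and 16.8% higher. The median change of all probe sets was -0.02 when quantile normalized, -0.07 with the deposited scale and 0.07 when centred, while that of the members was -0.17, -0.19 and -0.041.

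**Figure D1:**
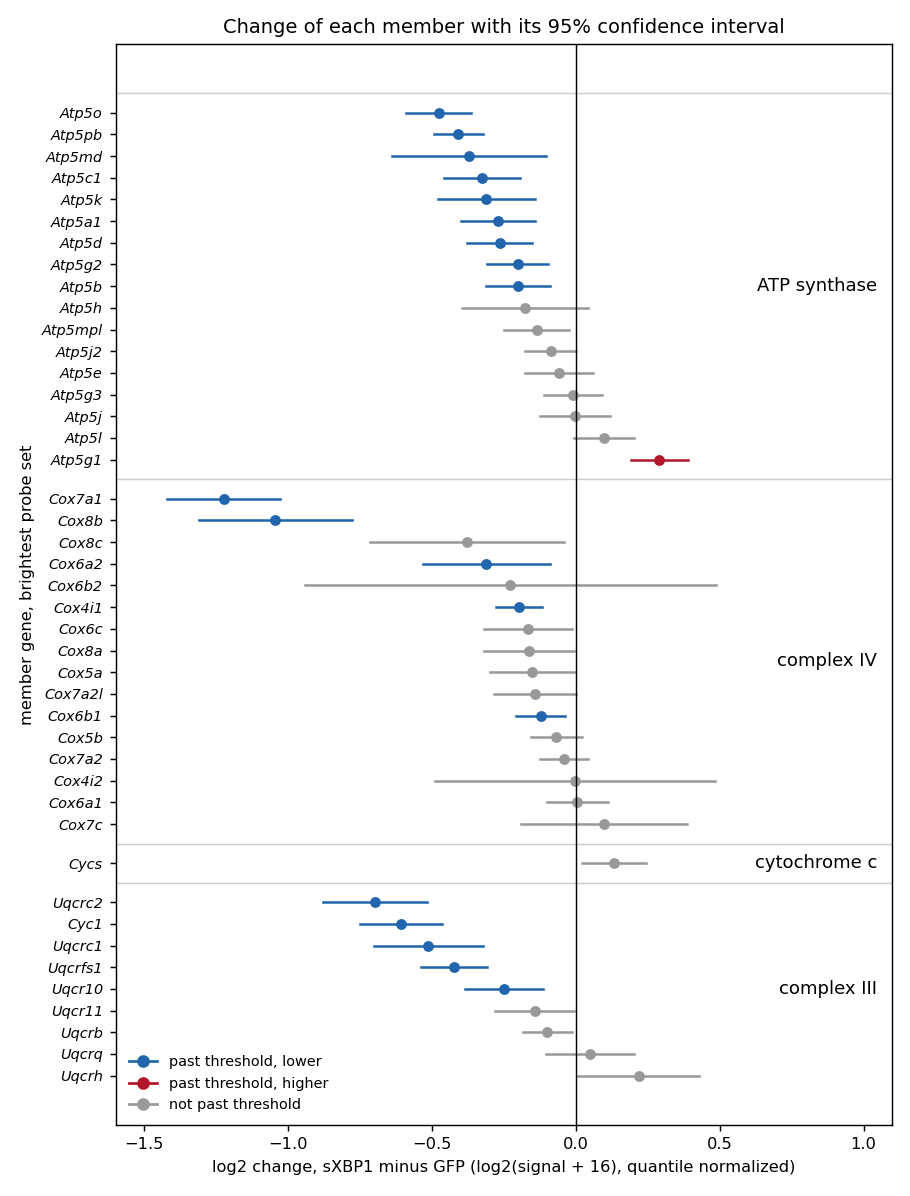
Log2 change of each member gene (sXBP1 minus GFP, x axis) on its brightest probe set, as a point with its 95% confidence interval, grouped by complex on the y axis; colours mark genes past the threshold downwards, upwards or neither. Cox7a1 and Cox8b lie farthest to the left, the 4 core subunits of complex III lie between -0.70 and -0.42, and Atp5g1 is the gene past the threshold to the right.

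Complex III held 9 members, of which 5 were lower (55.6%, against 14.4% of all genes) and 0 higher, with a median change of -0.25. The 4 members that carry a redox centre or build its core were all lower, with a median change of -0.56, and they remained lower with the signals as deposited and after median centring. Cyc1, which encodes cytochrome c1, the heme subunit that hands electrons to cytochrome c, gave signals of 6981, 7655, 7259 and 7384 on the GFP arrays and 5074, 4990, 4352 and 4606 on the sXBP1 arrays. Every sXBP1 array lay below every GFP array. The means were 7320 ± 280 (SD, n = 4) and 4755 ± 338, a change of -0.61 ± 0.06 (SE; limma adjusted p = 8.18e-05), or 1.52-fold lower. Uqcrc2 and Uqcrc1 encode the core proteins that flank the complex on its matrix side. Uqcrc2 gave 3640, 3858, 3455 and 3752 in GFP and 2438, 2344, 1959 and 2109 in sXBP1. The groups stood apart, at 1.62-fold lower, with a change of -0.70 ± 0.08 (limma adjusted p = 0.000159). A dimmer probe set of Uqcrc2 gave -0.94 ± 0.07. Uqcrc1 gave 3773, 4239, 4346 and 4128 in GFP and 3119, 3060, 2322 and 2864 in sXBP1, where sXBP1 3 was the lowest array. Its change was -0.51 ± 0.08 (limma adjusted p = 0.00141). Uqcrfs1, the Rieske iron-sulfur protein, gave 4441, 5448, 4599 and 5008 in GFP and 3471, 3730, 3235 and 3874 in sXBP1. Its groups did not overlap either, and the change was -0.42 ± 0.05 (limma adjusted p = 0.000201), 1.34-fold lower.

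The 5 small subunits that surround this core did otherwise: 1 was lower, 4 did not pass the threshold and their median change was -0.10. Uqcr10 was lower on its brightest probe set, at -0.25 ± 0.06 (limma adjusted p = 0.0123). Its other 2 probe sets, with mean signals under 300, gave 0.36 and 0.18, neither past the threshold, and the mean over its 3 probe sets gave 0.10 (adjusted p = 0.623). Uqcr11 gave -0.14 ± 0.06 (adjusted p = 0.129) and Uqcrb, at a signal of 14406 ± 340 in GFP, gave -0.10 ± 0.04 (adjusted p = 0.0928). Uqcrh encodes the acidic hinge protein at which cytochrome c docks. Its signals were 3313, 3144, 2865 and 3951 in GFP and 3407, 3908, 3977 and 3772 in sXBP1. They overlapped because of GFP 4. The change of 0.22 had a 95% interval from 0.01 to 0.43 (limma adjusted p = 0.131), and without GFP 4 it was 0.29 (adjusted p = 0.0419). Over the 8 settings that left out 1 array it ran from 0.16 to 0.29, with limma adjusted p from 0.0419 to 0.311. Uqcrq, a small membrane subunit, gave 4930, 5391, 5444 and 5500 in GFP and 5884, 5736, 4787 and 5386 in sXBP1. Its groups overlapped fully, with an interval of the change from -0.11 to 0.20 (adjusted p = 0.697). The difference between core and small subunits was not tested.

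**Figure D2:**
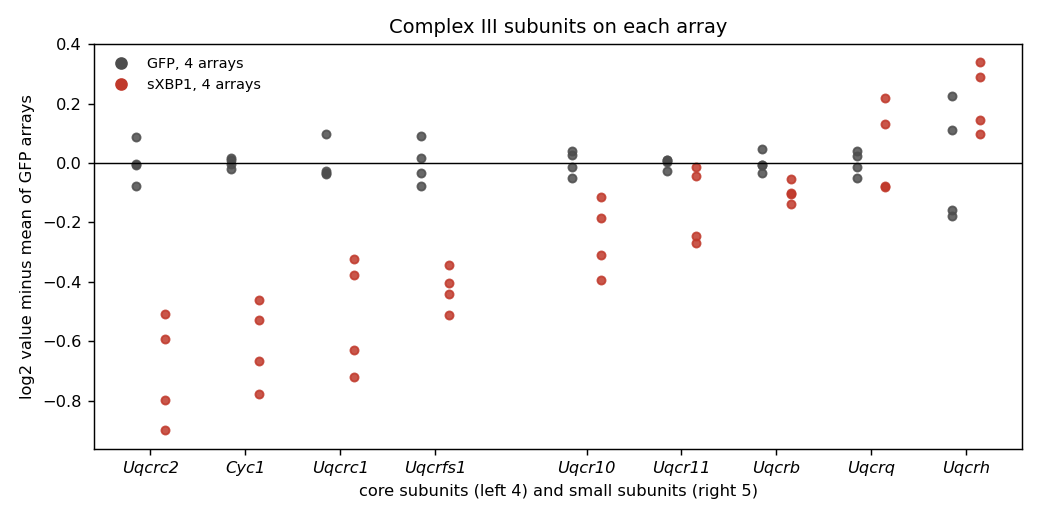
Log2 value of each complex III subunit on each array (y axis), as the difference from the mean of the 4 GFP arrays, with GFP and sXBP1 arrays in different colours. For the 4 core subunits on the left all sXBP1 arrays lie below all GFP arrays, while among the 5 small subunits on the right this is seen for Uqcr10 and, by a small margin on this normalized scale, Uqcrb.

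Cytochrome c, the soluble carrier between the complexes, is encoded by Cycs, which is expressed in somatic cells. Its signals were 9995, 10580, 10315 and 10696 in GFP and 11578, 10811, 12181 and 11361 in sXBP1. Every sXBP1 array was above every GFP array, but with a change of 0.13 ± 0.05 the gene stayed short of the threshold (limma adjusted p = 0.0852). The other 2 Cycs probe sets gave -0.14 ± 0.21 and -0.02 ± 0.06, so the probe sets of this gene did not share a direction.

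The genomic sequence before the member genes was searched for letters known from respiratory genes and from XBP1 targets. RefSeq windows of 300 bases, from 250 before to 50 after a gene's annotated start on GRCm38.p6, were held for 32 of the 43 genes (35 windows, since 3 genes have several), and both strands were read. The palindrome bound by NRF1, a regulator of respiratory genes, whose letters are those in capitals in the Uqcrc1 window below, was found at 4 member genes (12.5%: Atp5g2, Atp5k, Cox6a1 and Uqcrc1), against 1.07% of all 27025 genes. CCGGAAG, bound by ETS factors such as GABP, was found at 11 (34.4%, against 9.93%), and AAGATGGCG, bound by YY1, at 2 (6.25%, against 1.64%). The ERR letters TCAAGGTCA were at Atp5g3 only among these 32 (3.12%, against 0.466%). TATAAA, added after the sequences were looked at, was at Atp5l, Atp5md and Cox8b (9.38%, against 15.7%). Of the letters linked to XBP1, TGACGTGG was at 0 of the 32 (0.714% of all genes) and the full ER stress element, CCAAT and CCACG with 9 bases between, at 0 (0.137% of all genes). The 5 letters CCACG, which are the end of the latter and, reversed, part of the former, were at 14 (43.8%, against 35.5%). A match is a description of the letters only. The window of Uqcrc1 is shown because it holds the NRF1 letters in a core subunit that was lower (chr9:108936398-108936697, plus strand). In this and the later sequences, printed 5′ to 3′ along the gene, capitals mark NRF1, ETS, TATAAA or CCACG letters on either strand.
Uqcrc1: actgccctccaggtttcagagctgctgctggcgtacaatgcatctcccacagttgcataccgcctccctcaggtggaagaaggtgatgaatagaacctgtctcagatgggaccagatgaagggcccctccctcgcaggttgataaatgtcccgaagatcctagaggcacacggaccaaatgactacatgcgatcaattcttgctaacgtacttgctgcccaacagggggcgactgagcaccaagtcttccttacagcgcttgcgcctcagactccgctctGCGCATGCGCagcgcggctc

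Complex IV held 16 members, of which 5 were lower (31.2%) and 0 higher, with a median change of -0.16. Lower genes were 14.4% of all genes and 26.3% of the top 5% by mean signal. After median centring 2 members were lower (12.5%, against 10.6% of all genes) and 0 higher. The isoform pairs of complex IV allow a comparison between a tissue-restricted gene and its widely expressed relative on the same arrays. Of the 6 tissue-restricted isoforms 3 were lower (Cox7a1, Cox8b and Cox6a2), and of the 5 widely expressed ones 2 were (Cox4i1 and Cox6b1). Cox7a1, the heart, muscle and brown fat form of subunit VIIa, gave 673, 780, 823 and 749 on the GFP arrays and 321, 309, 238 and 301 on the sXBP1 arrays. Every sXBP1 array lay below every GFP array, and the gene was 2.34-fold lower. The change was -1.22 ± 0.09, with an interval from -1.42 to -1.03 (limma adjusted p = 7.86e-06). Cox8b, the corresponding form of subunit VIII, gave 226, 291, 237 and 249 in GFP and 110.7, 111.8, 96.7 and 85.8 in sXBP1. These groups were also apart, and the gene was 2.06-fold lower, with a change of -1.05 ± 0.12 (limma adjusted p = 0.000139). Cox6a2, the heart and muscle form of subunit VIa, gave 268, 315, 256 and 339 in GFP and 209, 198, 177 and 270 in sXBP1. Here sXBP1 4 lay above GFP 1 and GFP 3, so the groups overlapped, and the change was -0.31 ± 0.10 (limma adjusted p = 0.0433).

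The other 3 tissue-restricted isoforms were near or under detection. Cox8c, a testis form of subunit VIII, was called present on no array, at 261, 247, 172 and 177 in GFP and 135, 146, 115 and 182 in sXBP1 (adjusted p = 0.104). Cox6b2, the testis form of subunit VIb, was called present on no array either and did not exceed 61.8. Cox4i2, the lung form of subunit IV, lay between 20.4 and 52.8, and the deposited comparison table, which gives the presence calls, does not list it. No direction is read from these 3 genes.

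The widely expressed forms had changes between -0.20 and 0.01. Cox7a2 gave 10121, 11048, 11019 and 10824 in GFP and 9991, 10436, 10300 and 11289 in sXBP1. These overlapped, and the change of -0.04 had an interval from -0.13 to 0.04 (adjusted p = 0.509). Cox8a gave 7240, 7449, 7389 and 7588 in GFP and 6990, 6929, 5409 and 6981 in sXBP1. All sXBP1 arrays lay below the GFP arrays, sXBP1 3 by the most, but the change of -0.16 ± 0.07 missed the threshold (limma adjusted p = 0.129). Cox6a1 gave 13234, 13941, 13417 and 13203 in GFP and 14462, 13583, 14622 and 12840 in sXBP1. Its values overlapped, with an interval of the change from -0.10 to 0.11 (adjusted p = 0.96). Cox4i1, the form of subunit IV used in most tissues, gave 10866, 12272, 11562 and 11466 in GFP and 10189, 10038, 10080 and 10231 in sXBP1. The sXBP1 arrays lay close together below every GFP array, and the change was -0.20 ± 0.04 (limma adjusted p = 0.00246). Cox6b1, the form of subunit VIb used in most tissues, gave 9385, 10464, 10229 and 10254 in GFP and 8882, 8753, 9255 and 9576 in sXBP1. GFP 1 lay below sXBP1 4, and the change of -0.12 ± 0.04 was just inside the threshold (limma adjusted p = 0.0419) on 1 of its 2 probe sets. Cox7a2l, a relative of subunit VIIa that joins complexes III and IV into supercomplexes, gave 3639, 3976, 4069 and 3416 in GFP and 3258, 3121, 3378 and 3654 in sXBP1. These overlapped, and the change of -0.14 ± 0.06 did not pass (adjusted p = 0.149).

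The difference between isoforms was tested directly, as the log2 value of one gene minus that of the other on each array, in a two-sided exact permutation test of 4 against 4 arrays, which cannot give a p below 0.0286. A difference between 2 probe sets is used only for its change between groups, not as a ratio of transcripts. The restricted genes were much dimmer, with GFP means of 756 for Cox7a1 and 251 for Cox8b, against 10753 for Cox7a2 and 7417 for Cox8a. Within member genes, 17 of 24 further probe sets with a mean signal of at least 300 changed more negatively than the brightest. The part of signal level in the isoform differences was not tested. Cox7a1 minus Cox7a2 ran from -3.93 to -3.70 on the GFP arrays and from -5.21 to -4.85 on the sXBP1 arrays. The ranges did not meet, and Cox7a1 fell by 1.18 ± 0.10 more than Cox7a2, a 2.27-fold difference (exact permutation p = 0.0286, 0.0381 adjusted over the 4 pairs compared). Against Cox7a2l the difference of Cox7a1 was -1.08 ± 0.11, and for Cox8b against Cox8a it was -0.88 ± 0.13, with the same exact and adjusted p. Cox6a2 against Cox6a1 gave -0.32 ± 0.13 (exact permutation p = 0.114, also after adjustment), and its ranges of -5.65 to -5.36 and -6.04 to -5.53 overlapped because of sXBP1 4. Without sXBP1 4 that difference was -0.42 (exact permutation p = 0.0286). Over the 8 settings that left out 1 array, the exact permutation p of this pair ran from 0.0286 to 0.2. Pairs with Cox4i2, Cox6b2 and Cox8c were not compared, since these were not called present.

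**Figure D3:**
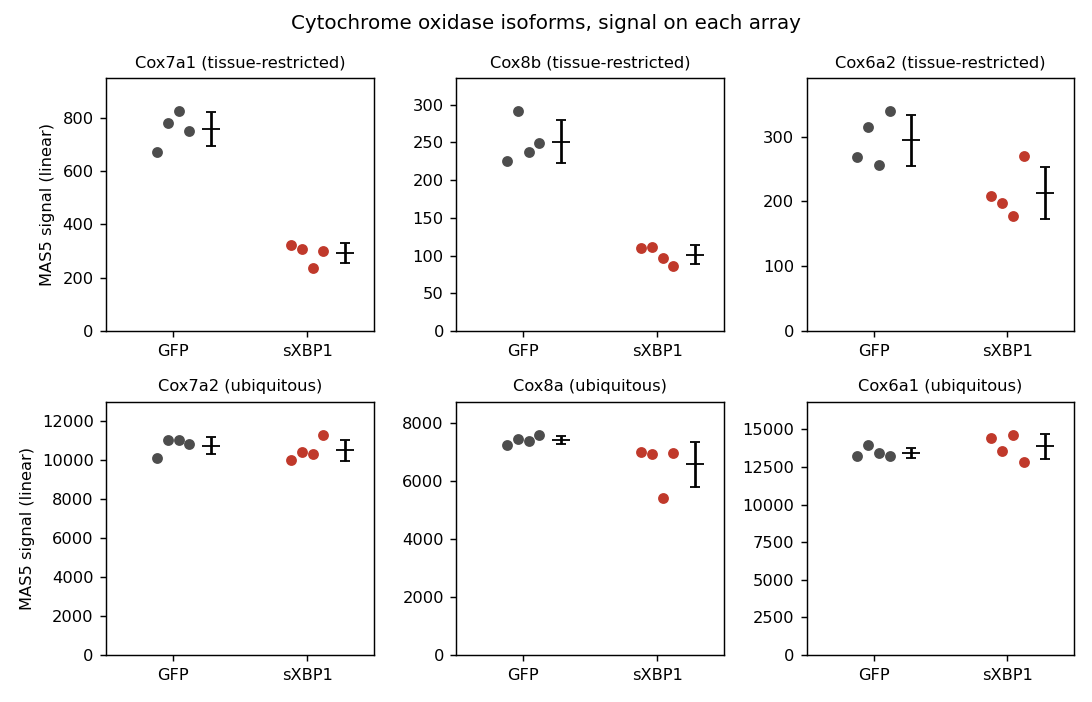
Deposited linear signal (y axis, from 0, with its own scale in each panel) of tissue-restricted and widely expressed cytochrome oxidase isoforms on each of the 4 GFP and 4 sXBP1 arrays, as points, with the mean and SD beside them. Cox7a1 falls from 673 to 823 in GFP to 238 to 321 in sXBP1 and Cox8b from 226 to 291 to 85.8 to 112, while Cox7a2 and Cox6a1 overlap between the groups.

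The isoform promoters are shown to set the restricted genes beside their widely expressed relatives. The windows are chr7:30183921-30184220 (plus strand) for Cox7a1, chr9:79759804-79760103 (minus) for Cox7a2, chr7:140900397-140900696 (minus) for Cox8b and chr19:7217567-7217866 (minus) for Cox8a, from RefSeq on GRCm38.p6. Cox8b holds TATAAA and Cox8a holds the ETS letters 2 times. Cox7a1 holds CCACG once, on the minus strand of the gene, and Cox7a2 holds none of the marked letters.
Cox7a1: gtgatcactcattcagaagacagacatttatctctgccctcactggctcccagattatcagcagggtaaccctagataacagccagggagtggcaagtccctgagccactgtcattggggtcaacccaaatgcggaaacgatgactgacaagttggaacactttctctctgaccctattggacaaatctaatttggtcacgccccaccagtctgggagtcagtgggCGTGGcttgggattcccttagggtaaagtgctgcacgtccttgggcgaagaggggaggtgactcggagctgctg
Cox7a2: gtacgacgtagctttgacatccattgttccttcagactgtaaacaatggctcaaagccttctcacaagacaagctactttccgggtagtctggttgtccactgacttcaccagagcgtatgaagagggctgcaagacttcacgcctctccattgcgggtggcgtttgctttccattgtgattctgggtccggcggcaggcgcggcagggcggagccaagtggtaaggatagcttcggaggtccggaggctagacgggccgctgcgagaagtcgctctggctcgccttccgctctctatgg
Cox8b: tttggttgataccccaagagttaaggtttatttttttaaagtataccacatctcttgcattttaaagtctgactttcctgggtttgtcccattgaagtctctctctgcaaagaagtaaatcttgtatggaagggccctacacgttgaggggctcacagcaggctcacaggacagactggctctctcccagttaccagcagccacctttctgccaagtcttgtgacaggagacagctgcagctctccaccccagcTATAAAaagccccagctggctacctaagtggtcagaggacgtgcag
Cox8a: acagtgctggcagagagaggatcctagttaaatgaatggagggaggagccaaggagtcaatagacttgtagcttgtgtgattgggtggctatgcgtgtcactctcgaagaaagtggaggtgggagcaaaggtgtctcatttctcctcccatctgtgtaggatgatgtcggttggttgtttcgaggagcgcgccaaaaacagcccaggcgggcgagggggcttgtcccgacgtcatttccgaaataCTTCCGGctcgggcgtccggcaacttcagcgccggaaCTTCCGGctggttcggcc

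Cox7a1 and Cox8b are also used as markers of thermogenic adipocytes. Of 7 such markers measured, these included, 4 were lower and 0 higher. Their summed signal was 1174 to 1406 on the GFP arrays and 480 to 598 on the sXBP1 arrays. Most of this sum is Cox7a1 (mean 756 in GFP and 292 in sXBP1) and Cox8b (251 and 101), so it is no separate measure from these members. Ucp1, the uncoupling protein that defines thermogenic fat, was called present on no array, and so was the coactivator gene Ppargc1a, which is counted among the 4 lower markers but from which no direction is read. The other lower marker was Cidea, which encodes a lipid droplet protein. Elovl3, called present on 4 GFP and 3 sXBP1 arrays, gave -0.12 ± 0.22 (limma adjusted p = 0.759). Dio2, called present on 2 GFP arrays and 0 sXBP1 arrays, gave 0.05 ± 0.19 (limma adjusted p = 0.902). Of 12 markers of striated muscle, 8 were called present on no array (Myh1, Myh2, Myh4, Tnnc2, Myod1, Actc1, Ckm and Tnnt3) and 1, Mb, was lower. Acta1, called present on 4 GFP and 4 sXBP1 arrays, gave -0.08 ± 0.12 (limma adjusted p = 0.726). The summed signals of the 12 were 355 to 613 in GFP and 296 to 396 in sXBP1. The rest of complex IV has a single form here. Of Cox5a, Cox5b, Cox6c and Cox7c, 0 of 4 passed the threshold on the brightest probe set, with a median change of -0.11. Cox5a, which builds the matrix face with Cox5b, gave -0.15 (adjusted p = 0.126) on its brightest probe set, where sXBP1 4 stood highest of all 8 arrays, and was lower on its other 2, at -0.23 (limma adjusted p = 0.00268) and -0.30 (limma adjusted p = 0.00381). Cox6c gave -0.17 (adjusted p = 0.114) on its brightest probe set and was lower on its other, at -0.31 (limma adjusted p = 0.0266). Cox5b gave -0.07 (adjusted p = 0.271) on its brightest. Further Cox5b probe sets were lower at -0.13 (limma adjusted p = 0.03) and -0.17 (limma adjusted p = 0.0349). Its remaining probe sets gave 0.09, 0.05 and 0.19, none past the threshold. Cox7c, at a signal of only 89.1 ± 12.7 in GFP, gave 0.10 ± 0.13.

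ATP synthase held 17 members, of which 9 were lower (52.9%, against 14.4% of all genes) and 1 was higher, with a median change of -0.20. After median centring 3 were lower (17.6%, against 10.6% of all genes) and 2 higher. In the F1 head, where ATP is made, 4 of 5 subunits were lower, and after median centring 1 of 5 was, since the calls of Atp5a1, Atp5b and Atp5d ended. Atp5c1, the central stalk that turns inside the head, gave 6478, 6927, 6766 and 6722 in GFP and 5408, 5537, 5108 and 5140 in sXBP1. The groups stood apart, and the change was -0.33 ± 0.06 (limma adjusted p = 0.00245), seen on 1 of its 2 probe sets. Atp5a1 and Atp5b, the alpha and beta subunits that alternate in the head, changed by -0.27 (limma adjusted p = 0.00582) and -0.20 (limma adjusted p = 0.0145), and Atp5d, at the foot of the stalk, by -0.26 (limma adjusted p = 0.00325). Atp5e, the smallest F1 subunit, gave -0.06 (adjusted p = 0.501). The peripheral stalk keeps the head from turning. Of its 4 members Atp5pb and Atp5o were lower. Atp5pb gave 8547, 9642, 8700 and 8856 in GFP and 6289, 6734, 6371 and 7145 in sXBP1. No array of one group reached the other, and the change was -0.41 ± 0.04 (limma adjusted p = 4.14e-05), 1.33-fold lower. Atp5o, the subunit that ties the stalk to the top of the head and gives sensitivity to oligomycin, gave 6811, 7219, 7420 and 7688 in GFP and 5228, 5343, 4679 and 5470 in sXBP1. It was 1.39-fold lower without overlap, at -0.48 ± 0.05 (limma adjusted p = 8.44e-05), and -0.86 ± 0.11 on its dimmer probe set.

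The other peripheral stalk members did not pass. Atp5j gave 4356, 4279, 4586 and 4761 in GFP and 4377, 4297, 4081 and 4984 in sXBP1. The groups overlapped, with an interval of the change from -0.13 to 0.12 (adjusted p = 0.974). Atp5h gave 6705, 7400, 7760 and 7354 in GFP and 5315, 5955, 5874 and 8626 in sXBP1, so 3 sXBP1 arrays lay below every GFP array and sXBP1 4 above them all. Its change was -0.18 ± 0.10 (limma adjusted p = 0.246), and without sXBP1 4 it was -0.29 (limma adjusted p = 0.00278). Over the 8 settings that left out 1 array it ran from -0.29 to -0.11, with limma adjusted p from 0.00278 to 0.494. Its other probe set gave -0.01.

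The c ring is built from 1 protein that 3 genes encode with different import sequences, and these genes did not move alike. Atp5g1 gave 2539, 2791, 2671 and 2679 in GFP and 3123, 3215, 3122 and 3295 in sXBP1. All sXBP1 arrays lay above all GFP arrays, and it was 1.22-fold higher, with a change of 0.29 ± 0.04 (limma adjusted p = 0.000882). Atp5g2 gave 4896, 5194, 5084 and 5225 in GFP and 4590, 4275, 4141 and 4568 in sXBP1. It was lower without overlap, at -0.20 ± 0.05 (limma adjusted p = 0.0102), on 1 of its 2 probe sets. Atp5g3 gave 10325, 10988, 10241 and 10178 in GFP and 10755, 10733, 9963 and 10119 in sXBP1. It overlapped, and its interval ran from -0.11 to 0.09 (adjusted p = 0.915). The differences between these 3 genes were not tested, and after median centring Atp5g2 was no longer past the threshold while Atp5g1 was.

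The promoter window of Atp5g1 is shown because this was the member past the threshold upwards, and it lies at chr11:96075582-96075881 on the minus strand of GRCm38.p6 (RefSeq). It holds CCACG 3 times, counting both strands, and none of the NRF1, ETS or TATAAA letters.
Atp5g1: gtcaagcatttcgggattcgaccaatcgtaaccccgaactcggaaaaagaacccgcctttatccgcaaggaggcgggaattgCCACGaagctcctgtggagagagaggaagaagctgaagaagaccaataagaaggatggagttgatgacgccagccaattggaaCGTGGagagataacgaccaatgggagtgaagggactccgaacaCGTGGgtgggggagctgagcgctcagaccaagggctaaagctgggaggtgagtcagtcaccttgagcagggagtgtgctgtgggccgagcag

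Of the 5 membrane subunits around the ring, 2 were lower. Atp5k, which takes part in joining synthases into dimers, changed by -0.31 (limma adjusted p = 0.0127), and its other 2 probe sets were lower too, at -0.43 and -0.47. Atp5md, a small membrane subunit, gave -0.37 ± 0.12 (limma adjusted p = 0.0465), with overlap between groups. Atp5mpl gave -0.14 (adjusted p = 0.0799), Atp5j2 -0.09 (adjusted p = 0.149) and Atp5l 0.10 (adjusted p = 0.179).

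Across the arrays the members did not all move the same way. On the normalized scale Atp5g1, Atp5l, Cycs and Uqcrh lay above their GFP means on every sXBP1 array. The median deviation of the 43 members from their GFP means was -0.12, -0.13, -0.22 and -0.17 on sXBP1 1 to 4. For complex III it was -0.14, -0.18, -0.40 and -0.31, and for complex IV it was -0.15, -0.13, -0.19 and -0.12. For ATP synthase it was -0.12, -0.19, -0.23 and -0.24. Complex III and ATP synthase thus stood lowest on sXBP1 3 and sXBP1 4. Using only sXBP1 1 and sXBP1 2, chosen as an alternative after the data were seen, 18 members were lower and 2 higher, with a median of -0.15. The ratios of 3′ to 5′ probe sets, a sign of RNA integrity, were 0.810 to 0.820 in GFP and 0.775 to 0.802 in sXBP1 for Gapdh, and 1.404 to 1.444 and 1.333 to 1.438, which overlap, for actin. Their part in these results was not tested. Across the 43 members the change was weakly related to mean signal (Spearman rho 0.235, across genes, which share arrays and are not replicates).

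**Figure D4:**
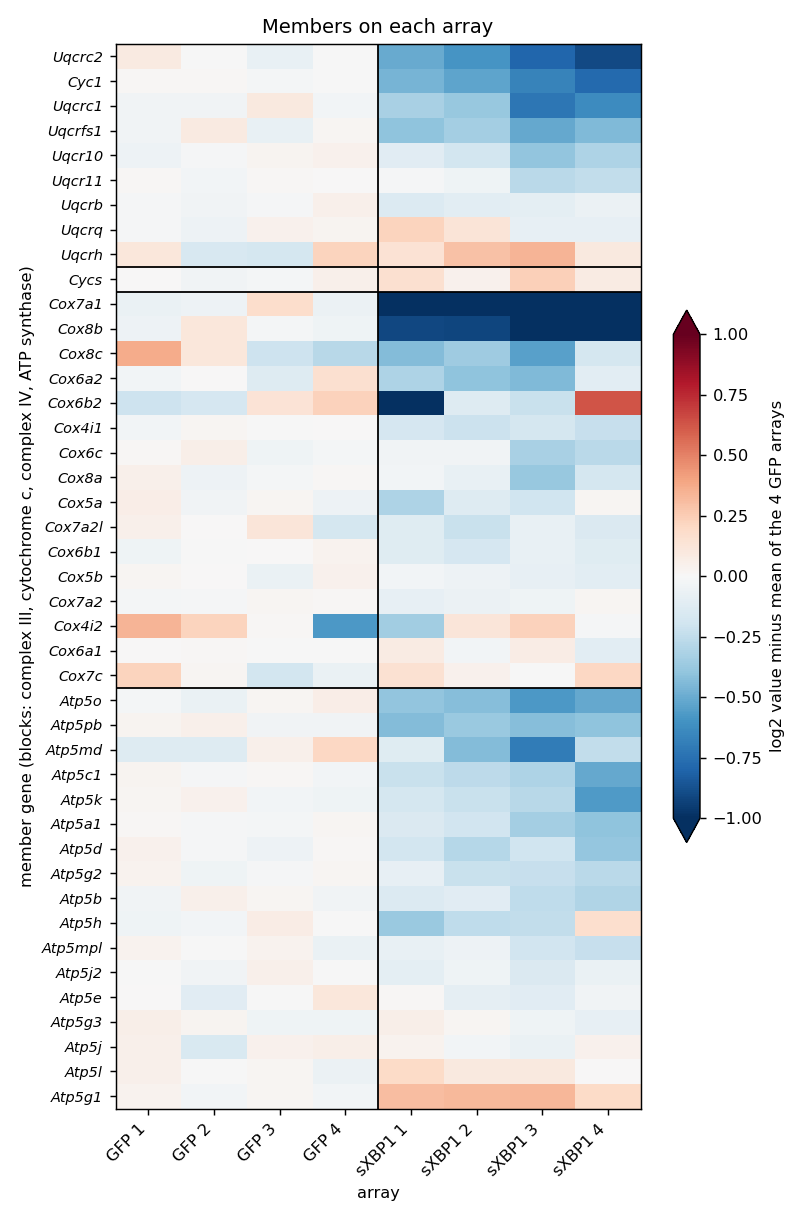
Log2 value of each member (rows, in blocks by complex) on each array (columns, GFP on the left of the line and sXBP1 on the right), as the difference from the mean of the 4 GFP arrays, by colour. Cox7a1 and Cox8b and the core of complex III are low on all sXBP1 arrays, and Atp5h is low on sXBP1 1 to 3 and high on sXBP1 4.

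Genes that build or regulate these complexes were read from lists chosen with earlier results known. Of 27 measured assembly and maturation factors, 11 were lower and 4 higher, with a median of -0.08. After median centring 6 were lower (22.2%) and 7 higher (25.9%). Among all genes 14.4% were lower and 12.9% higher, and after median centring 10.6% and 16.8%. These shares of all genes also stand beside the counts of the lists below. Surf1, an early assembly factor of complex IV, had the smallest p of the list and was higher, with signals of 1204, 1368, 1258 and 1378 in GFP and 1959, 1986, 2455 and 2711 in sXBP1. The groups did not overlap, and the change was 0.84 ± 0.08 (limma adjusted p = 4.39e-05). Cox19 and Cox15, which serve copper delivery and heme a synthesis, changed by -0.51 and -0.36, Uqcc1, for complex III, by -0.37 and Lrpprc, which keeps mitochondrial transcripts stable, by -0.43, while its partner Slirp was higher by 0.24. Of 3 measured subunits and regulators outside the symbol rule, 0 were lower and 1 higher. Atpif1, the inhibitor of ATP synthase, was higher by 0.22 ± 0.05 (limma adjusted p = 0.0099) but not past the threshold with the signals as deposited. Ndufa4 gave 0.09 ± 0.04 (limma adjusted p = 0.141) and was called higher after median centring. Cyct, the testis cytochrome c, gave -0.72 ± 0.26 (limma adjusted p = 0.0682). The mitochondrially encoded subunits were not measured. Of 13 measured regulators of respiratory genes, 5 were lower and 2 higher, with a median of 0.11. With the signals as deposited 4 were lower and 0 higher, and after median centring 3 were lower and 3 higher. The 5 include Ppargc1a, which was called present on no array. Ppargc1b, a coactivator of mitochondrial genes, went from 429 ± 39.0 to 148 ± 31.0, and was called present on 4 GFP arrays and 1 sXBP1 array (change -1.32 ± 0.13, limma adjusted p = 5.17e-05). Polrmt, the mitochondrial RNA polymerase, fell by 0.60 ± 0.06 (limma adjusted p = 8.28e-05) and Esrra, a nuclear receptor of respiratory genes, by 0.33 ± 0.10 (limma adjusted p = 0.0375), a call that ended after median centring. The 2 higher regulators were Gabpb1, by 0.54 ± 0.14 (limma adjusted p = 0.0185), and Pprc1, by 0.39 ± 0.11 (limma adjusted p = 0.0277). Both calls ended with the signals as deposited. Yy1 was lower by 0.19 ± 0.05 (limma adjusted p = 0.0204), a call that ended with the signals as deposited and after median centring. Nrf1, Gabpa and Tfam did not pass the threshold.

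All 4 subunits of complex II, the neighbouring complex that feeds electrons from succinate, were lower in each of the 3 scalings, with a median of -0.41. Sdhb, its iron-sulfur subunit, changed by -0.46 ± 0.04 (limma adjusted p = 2.41e-05), Sdhd by -0.48, Sdha by -0.36 and Sdhc by -0.31. Of 21 other mitochondrial proteins measured, 13 were lower and 0 higher, with a median of -0.18, but after median centring 4 were lower and 1 higher. The members' own median of -0.17 lay beside this. The fusion protein Mfn2 (-0.56), the protease Lonp1 (-0.45) and the ATP carrier Slc25a4 (-0.36) were among those lower.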

How the data were processed

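Total RNA from 8 arrays, 4 per group, was compared. Each probe set has a linear signal intensity deposited by the authors. MAS5 made it, per the submitters' processing notes, with a version and target that were not given in the sources used here. A comparison table deposited by the authors also holds a fold (ratio of group means), a score and presence calls, of which only the calls were used here.

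Of 22690 probe sets, 64 controls were left out. The arrays' trimmed mean signals (2% at each end) ranged from 494 to 577, so values were taken as log2(signal + 16) and quantile normalized with limma 3.58.1 in R 4.3.3. Such changes understate those of dim genes. Groups were compared with lmFit and eBayes with an intensity trend (two-sided), Benjamini-Hochberg adjustment over 22626 probe sets and a threshold of 0.05. Isoform pairs were compared by exact permutation. Printed signals are as deposited. The number of arrays limits the precision.

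Symbols came from the platform annotation, and 43 of 43 member genes were found in RefSeq with 0 symbols changed. Members and lists were chosen with earlier results of these data known. Array values are given for the isoforms, for the 4 members with the smallest and the 2 with the largest p in each complex, and for members past the threshold upwards. From each list up to 6 genes past the threshold are named, and from the regulators all of them. Atp5g2, Atp5h, Cycs and genes that did not pass were also named, some after their values were seen. In simulated data of 22626 probe sets the sXBP1 against GFP test recovered 94% of log2 changes of 1 and 66% of 0.5, and 1.84% of calls were false. There, 100 changes of each size were placed in probe sets above the median level, with independent noise and no array or scaling effect. Those rates may therefore not hold for the measured arrays. Alternatives were the scaling, the pseudocount, filters on dim probe sets, no intensity trend, the replicate number as a block, the mean over a gene's probe sets and leaving out each array. Figures were drawn with matplotlib 3.10.9.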

Additional observations from a re-analysis of the deposited data

Results flagged for a closer look

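In 94 groups of 4 arrays examined, 5 had 1 array apart from the other 3 by more than Dixon's limit on normalized log2 values; chance gives about 5% of groups. Atp5g1 stood low on sXBP1 4 on that scale, 0.19 above the GFP mean with the others from 0.31 to 0.33 above it, although its deposited signal there, 3295, was above the others' 3122 to 3215. Atp5j stood low on GFP 2, with a deposited signal of 4279 against 4356 to 4761. Cox7a1 stood high on GFP 3, at 823 against 673 to 780, and so did Uqcrc1, at 4346 against 3773 to 4239. The difference of Cox7a1 minus Cox7a2 was -3.70 on GFP 3, against -3.93 to -3.89 on the other GFP arrays.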

How the results depend on the processing

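Of the 20 members past the threshold, 10 kept their call in all 18 other settings: Atp5c1, Atp5o, Atp5pb, Cox7a1, Cox8b, Cyc1, Uqcrc1, Uqcrc2 and Uqcrfs1 lower, and Atp5g1 higher. Median centring gave 9 lower, 4 higher and a median of -0.041, and ended the calls of Atp5a1, Atp5b, Atp5d, Atp5g2, Atp5k, Atp5md, Cox4i1, Cox6a2, Cox6b1 and Uqcr10; the cause was not tested. Members higher numbered 2 with a filter on mean signal at the 40th percentile, with presence on all 4 arrays of a group and with sXBP1 1 and 2 only. Leaving out 1 array gave 16 to 19 lower, 1 to 2 higher and medians from -0.19 to -0.15; there were 2 higher without GFP 4 (with Uqcrh) and without sXBP1 2 (with Cycs). Without an intensity trend 13 were lower. The replicate numbers are not said to pair the samples. Correlations between same-numbered arrays were only -0.06 to 0.12, but 5 of 8 samples correlated best with their own number, so these values do not settle whether arrays were paired. With the replicate number as a block 18 members were lower and 1 higher, and 5083 probe sets were called in place of 5543. No block was run for the isoform pairs, where 4 pairs of arrays cannot pass the threshold. Leaving out 1 array, the isoform differences ran from -1.25 to -1.12 (Cox7a1 minus Cox7a2) and -0.97 to -0.78 (Cox8b minus Cox8a). Cox6a2 minus Cox6a1 ran from -0.42, without sXBP1 4, to -0.25, with exact permutation p from 0.0286 to 0.2. Uqcr10 turned to 0.10 with the mean of its probe sets. Cox6a2, Cox6b1 and Atp5md lost their calls most often. Of the 23 members not called, 12 were called in no setting and 11 in some. The 6 members with mean signal under 300 are limited by their signal.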

Other observations

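Probe sets of the same gene often differed in size of change. Of 24 further probe sets of 18 member genes with a mean signal of at least 300, 17 had a more negative change than the gene's brightest probe set, a count made after the data were seen. Among genes whose brightest probe set was lower, this held for 7 of 8 further probe sets, the exception being Cox6b1. The widest gap was at Atp5o, with -0.86 against -0.48. Of the 36 further probe sets of any signal, 25 shared the call of the brightest and 0 were called in the opposite direction.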
